A study of Mus musculus with 15 samples.

Results

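Day 6 primordial germ cell-like cells (D6PGCLC) were set against the naive embryonic stem cells (ESC) from which they had been derived, over all genes of the count table. The comparison was chosen by sample, not by any measured value: it took the 3 D6PGCLC and the 3 ESC libraries of a bulk RNA-seq series of 15 libraries, and every 1 of the 55536 gene identifiers in the table. Of these, 18090 had enough counts to be tested. The 2 groups are the first and the last stage of a stepwise differentiation whose intermediate stages are not described here.

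Both groups came from mouse Stella-eGFP ESCs, in which a green fluorescent reporter is driven by Dppa3 (also called Stella), and both carried doxycycline (Dox)-inducible transgenes for Prdm1, Prdm14, Tfap2c and Nanog (4TF) together with the rtTA transactivator that Dox switches on. ESC were grown in N2B27 medium with 2i and LIF, that is, the MEK inhibitor PD0325901, the GSK3 inhibitor CHIR99021 (which stabilises beta-catenin) and leukaemia inhibitory factor, on laminin and without Dox. For D6PGCLC, epiblast-like cells made by 48 hours of Activin A and bFGF were aggregated in GK15 medium with 15% knockout serum replacement and 2 µg/ml Dox, without 2i, LIF or germ cell cytokines, and eGFP-positive cells were collected at day 6. The 2 groups therefore differ in cell state, medium, culture format (on laminin or in aggregates), Dox and sorting, and the shares of these in any difference cannot be told apart. The cells were 4TF clonal derivatives of 1 ESC line, and nothing in the labels says that replicates came from separate cultures, so the p-values measure only the spread between these libraries.

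Primordial germ cells (PGCs) are the embryonic precursors of sperm and oocytes. PRDM1, PRDM14 and TFAP2C together repress the somatic programme, restore pluripotency genes and open the way to genome-wide loss of DNA methylation, after which genes that are kept silent by promoter methylation in other cells, among them Dazl, Ddx4 and genes for piRNA biogenesis and meiosis, become active. Naive ESC in 2i and LIF are known for a pluripotency network and a low DNA methylation level that resemble those of PGCs, which makes them a close pluripotent reference for germ cells.

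The libraries held between 22555021 and 29790085 counts in ESC and between 32530096 and 42725681 in D6PGCLC. Levels are given as CPM, counts scaled to a common library size after TMM normalization, which corrects for differences in library composition. D6PGCLC replicate 1 stood apart at low counts: it had a count for 18061 genes, against 24343 and 24144 in replicates 2 and 3, and among 3287 genes whose lower count in the other replicates was 5 to 19 it held no count for 39.9%, against 0.729% and 2.20% for the same measure in replicates 2 and 3. Among the 11502 genes with at least 100 counts in both other replicates it missed none. The counts of list members below were therefore also made without this library. They are given where they fell, and counts without another library where leaving it out moved them by more than 1.5 times.

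In all, 2865 genes were higher in D6PGCLC (15.8% of those tested) and 1867 were lower (10.3%), where a gene is called when its edgeR quasi-likelihood p, adjusted by the Benjamini-Hochberg method over all tested genes, is under 0.05 and its log2 fold change is above 1 or below -1. The rises were larger than the falls: the median log2 fold change was 2.24 among the genes called higher and -1.87 among those called lower, and 527 rises but 178 falls went past 4 on the log2 scale; fitted values of genes without counts in a group depend on the prior count. The falls, on the other hand, lay in the more abundant transcripts. Genes called lower made up 74879 CPM in ESC and 25664 CPM in D6PGCLC, whereas genes called higher went from 16461 to 52753 CPM. Of the 18090 tested genes, 14669 reached the count filter in all 3 ESC libraries; among these, which did not depend on D6PGCLC for being tested, 1582 (10.8%) were higher and 1763 (12.0%) were lower. Without D6PGCLC replicate 1, 2665 of the genes called higher and 1557 of those called lower were called again. The 2 groups did not overlap for 11222 of the 18090 tested genes and for 4543 of the 4732 called genes. A lack of overlap in the genes below is to be read against these numbers. In bulk RNA, fewer cells that express a gene and less of its RNA in each cell cannot be told apart.

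**Figure D1:**
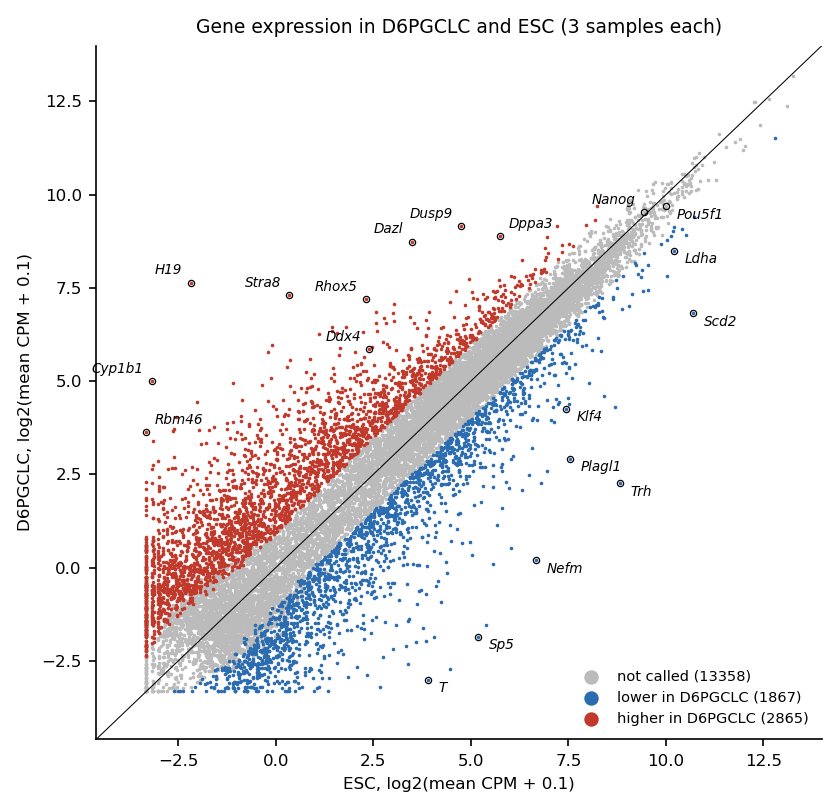
Mean expression of each tested gene in ESC (horizontal) and D6PGCLC (vertical), as log2(mean CPM + 0.1) over 3 libraries each; red, 2865 genes called higher in D6PGCLC, blue, 1867 called lower, grey, 13358 not called; the line marks equal expression. Red genes reach far from the line at low ESC levels, and several blue genes such as Scd2 and Trh lie at high ESC levels, while Pou5f1 and Nanog lie near the line.

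Among the 4 factors carried as transgenes, Prdm1 and Tfap2c were higher in D6PGCLC. Prdm1, a zinc finger repressor that starts the germ cell programme, was at 11.3, 10.8 and 10.4 CPM in the ESC libraries and at 60.4, 62.0 and 56.4 CPM in the D6PGCLC libraries. Tfap2c, which encodes the AP-2 gamma transcription factor, went from 41.7, 37.9 and 39.2 to 166, 162 and 157 CPM. The groups did not overlap for either gene, and the log2 fold changes were 2.46 ± 0.12 (SE) and 2.03 ± 0.08, with edgeR adjusted p-values of 5.7e-12 and 3.3e-13. Prdm14 stood at 46.2, 46.4 and 41.9 CPM in ESC and 74.3, 76.9 and 63.7 CPM in D6PGCLC, a log2 difference of 0.68 that did not pass the fold threshold. Nanog, at 689, 698 and 686 against 720, 848 and 637 CPM, overlapped between the groups (log2 fold change 0.09 ± 0.11, edgeR adjusted p = 0.50). The gene counts do not separate transgene from endogenous transcripts.

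Of 15 tested genes known from early PGCs, 8 were higher (against 15.8% of all tested genes), 1 was lower and 6 were not called. Dppa3, whose reporter was used for the sort and which is therefore no independent measure, was at 55.5, 55.7 and 50.5 CPM in ESC and 432, 472 and 522 CPM in D6PGCLC. Itgb3, the integrin beta 3 chain (CD61) used as a PGCLC surface marker, went from 7.55, 7.76 and 8.98 to 139, 125 and 135 CPM. Sox15, a Sox factor of germ cells, went from a mean of 13.4 ± 0.269 (SD, n = 3) to 62.0 ± 15.5 CPM. All 3 showed a wide gap between the groups. Also higher were Nanos3 and Dnd1, RNA-binding proteins that keep PGCs alive (3.01 to 7.33 and 8.15 to 18.8 mean CPM), Ifitm1, a membrane protein of early PGCs (43.0 to 115 mean CPM), and Cxcr4, the receptor that guides PGC migration (0.714 to 5.94 mean CPM). Kit, the receptor for stem cell factor, and Alpl, the alkaline phosphatase long used to stain PGCs, were already abundant in ESC: their means went from 150 to 292 and from 262 to 499 CPM, with no overlap between groups but log2 fold changes of 0.96 and 0.93 that missed the fold threshold. Lin28a, an RNA-binding protein that blocks let-7 maturation and acts early in PGC specification, was the exception, at 168, 163 and 162 CPM in ESC and 43.8, 56.5 and 48.8 CPM in D6PGCLC (log2 fold change -1.72 ± 0.12, edgeR adjusted p = 8.9e-10). Of the list's markers fixed for PGC-like cells, none was at 0 in D6PGCLC. They all had counts in ESC as well, so their presence does not tell the groups apart.

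Genes of later PGCs and of germ cell RNA regulation were also higher in a large part, 17 of 25 tested members against 15.8% of all tested genes. Dazl (chr17:50279395-50293636, mm10), an RNA-binding protein that licenses PGCs for gametogenesis, was at 11.0, 12.8 and 9.41 CPM in ESC and 460, 360 and 464 CPM in D6PGCLC, 38.8-fold higher. Ddx4, the germ cell RNA helicase also called mouse vasa homolog, went from 5.14, 4.87 and 5.43 to 56.7, 51.7 and 64.2 CPM, and Dmrt1, a DM-domain regulator of the germ line, from 4.09, 5.52 and 4.25 to 87.4, 60.5 and 91.6 CPM. No library of one group reached the level of the other for any of these. Rbm46 (chr3:82837228-82876483), an RNA-binding protein needed for meiotic entry, had no count in any ESC library and 14.5, 8.28 and 14.1 CPM in D6PGCLC, which is at least 320-fold higher when ESC is set at 3 counts over the group. Sohlh2, a germ cell basic helix-loop-helix factor, rose from a mean of 14.3 to 99.3 CPM, and Brdt, a testis bromodomain protein, from 0.368 to 5.59 CPM. The 1 member called lower was Zbtb16 (PLZF), a factor of spermatogonial stem cells, which went from 2.23 to 0.711 mean CPM. Of the 25 tested members, 7, all of them called higher, did not reach the count filter in ESC and so could hardly be called lower. Of the 18 that reached it there, 10 were higher and 1 lower (against 10.8% and 12.0% of all such genes), with a median log2 fold change of 1.11, beside 1.09 for the early PGC genes that reached it. Without D6PGCLC replicate 1, Bnc1 and Tex14 were no longer called and Sohlh1 was not tested. Nanos2, the male fetal germ cell factor, had no count in any of the 6 libraries, which allows up to 3 counts per library, or at most 0.132 CPM.

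Expressed per transcript length (TPM, in which counts are divided by exon length and each library is scaled to the same sum), the order of germ cell genes in D6PGCLC was led by Dppa3 at 1949 ± 124 TPM (SD, n = 3), followed by Ifitm3, another membrane protein of early PGCs, at 758 ± 41.3 TPM and by Rhox5, an X-linked homeobox gene, at 710 ± 56.2 TPM. Rhox5 and Ifitm3 did not differ beyond their spread. Dazl stood at 411 ± 61.7 TPM, close to Alpl at 455 ± 71.8 TPM and Ifitm1 at 385 ± 20.0 TPM, and Stra8 at 322 ± 61.4 TPM. In ESC the same scale gave 192 ± 12.8 TPM for Dppa3 and 389 ± 25.2 TPM for Ifitm3, but 20.5 ± 1.11 TPM for Rhox5, 9.21 ± 1.58 TPM for Dazl and 2.04 ± 0.327 TPM for Stra8. Dppa3 and Ifitm3 thus had the highest ESC levels of these 5 genes.

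**Figure D2:**
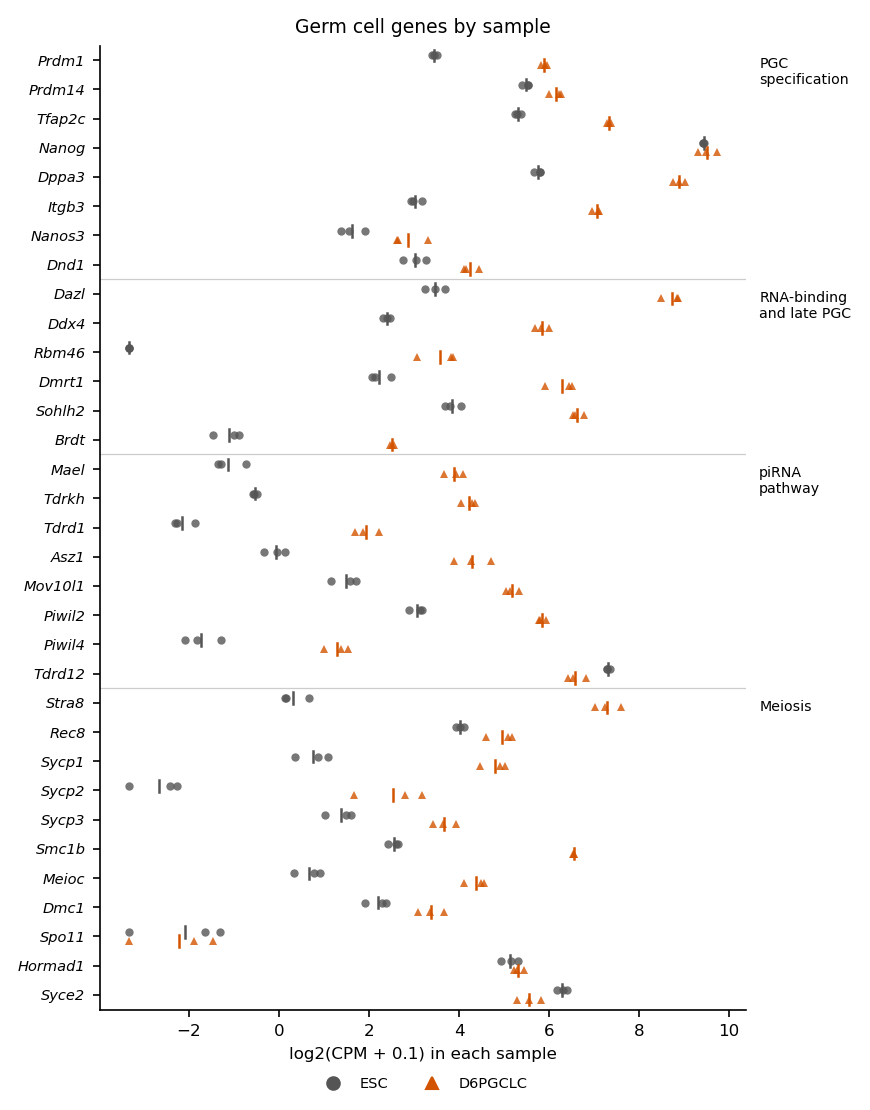
Germ cell genes in each library as log2(CPM + 0.1): grey circles, the 3 ESC libraries; orange triangles, the 3 D6PGCLC libraries; vertical ticks, group means on this scale. Most rows show a wide gap with D6PGCLC to the right, while Nanog, Hormad1 and Spo11 overlap and Tdrd12 and Syce2 lie to the left in D6PGCLC.

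Many germ cell genes that depend on promoter methylation for silencing hold E-box or E2F-type elements, which are bound by the MGA-MAX and E2F6 repressors of the PRC1.6 complex. The letters CACGTG (E-box) and GCGGGAA or its reverse complement TTCCCGC (E2F-type) were therefore looked for, on both strands, in RefSeq promoters spanning 250 bases before to 50 bases after the gene start (build GRCm38.p6). Of 52 members of the germ cell lists that were called higher, 44 had a promoter in the set. Of these, 14 (31.8%) held the E-box letters, 10 (22.7%) the E2F-type letters and 5 both. Among the 33 tested members that were not called higher or lower, 23 had a promoter, with 5 (21.7%) and 3 (13.0%) holding them. Of all 27025 genes with a promoter, 8.09% held the E-box and 5.29% the E2F-type letters. The motif was thus frequent in the germ cell lists as a whole, called or not, and the difference between called and uncalled members was not tested. The 4 promoters printed here belong to members of the late PGC, piRNA and meiosis lists that were called higher and hold CACGTG. They are those with the largest log2 fold changes. Capitals mark CACGTG and GCGGGAA, all 4 lie on the minus strand, and the sequences run 5′ to 3′ along the gene.
Rbm46: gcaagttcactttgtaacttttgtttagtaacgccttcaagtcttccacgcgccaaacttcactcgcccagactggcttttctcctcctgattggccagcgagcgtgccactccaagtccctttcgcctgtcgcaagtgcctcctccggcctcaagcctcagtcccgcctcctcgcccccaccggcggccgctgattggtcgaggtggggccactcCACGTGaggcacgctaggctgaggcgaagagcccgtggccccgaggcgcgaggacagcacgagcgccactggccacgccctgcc
Rnf212: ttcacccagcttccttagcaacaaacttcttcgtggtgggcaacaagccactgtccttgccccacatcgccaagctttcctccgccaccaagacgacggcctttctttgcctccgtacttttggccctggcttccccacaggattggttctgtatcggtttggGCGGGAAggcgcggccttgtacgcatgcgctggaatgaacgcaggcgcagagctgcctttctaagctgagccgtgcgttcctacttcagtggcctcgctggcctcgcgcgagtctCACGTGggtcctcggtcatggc
Sohlh1: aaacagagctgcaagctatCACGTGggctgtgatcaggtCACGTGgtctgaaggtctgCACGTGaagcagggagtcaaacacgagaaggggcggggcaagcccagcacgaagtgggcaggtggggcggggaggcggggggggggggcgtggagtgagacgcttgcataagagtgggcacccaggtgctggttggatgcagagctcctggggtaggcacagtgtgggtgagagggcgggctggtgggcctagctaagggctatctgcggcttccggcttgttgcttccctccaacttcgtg
Mael: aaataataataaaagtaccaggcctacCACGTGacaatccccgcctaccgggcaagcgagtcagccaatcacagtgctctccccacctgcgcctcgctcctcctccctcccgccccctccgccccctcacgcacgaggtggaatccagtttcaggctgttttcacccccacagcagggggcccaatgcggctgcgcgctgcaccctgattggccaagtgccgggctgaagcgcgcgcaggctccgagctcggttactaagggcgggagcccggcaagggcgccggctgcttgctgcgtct
The windows are chr3:82876434-82876733 for Rbm46, chr5:108774978-108775277 for Rnf212, chr2:25847199-25847498 for Sohlh1 and chr1:166238695-166238994 for Mael. Counted from the gene start, the E-box letters begin at base -34 in Rbm46, 29 in Rnf212 and -223 in Mael, and Sohlh1 holds them 3 times, at -231, -211 and -192; the E2F-type letters of Rnf212 begin at base -87. Rnf212, a meiotic crossover factor, had no count in ESC and 0.499, 0.528 and 0.822 CPM in D6PGCLC, at least 16.2-fold higher. Sohlh1, a germ cell helix-loop-helix factor, also had no count in ESC, and its 0.368, 0.0661 and 0.0850 CPM in D6PGCLC rested mainly on replicate 1.

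Of 22 tested genes of the piRNA pathway, which silences transposons in germ cells, 13 were called higher and none lower (against 15.8% and 10.3% of all tested genes). Mael, a component of the perinuclear nuage, was at 0.292, 0.307 and 0.503 CPM in ESC and 16.9, 12.5 and 15.1 CPM in D6PGCLC (log2 fold change 5.30 ± 0.29, edgeR adjusted p = 3.6e-11). Tdrkh, a Tudor protein that scaffolds piRNA trimming at mitochondria, went from 0.584, 0.614 and 0.570 to 20.4, 16.3 and 19.4 CPM. Asz1, Mov10l1 and Piwil2, which act in piRNA biogenesis, went from means of 0.858, 2.73 and 8.32 to 19.9, 36.2 and 57.0 CPM. None of these 5 genes overlapped between the groups, nor did 11222 of all 18090 tested genes. Piwil4, the nuclear PIWI protein that directs DNA methylation in fetal male germ cells, rose from 0.208 to 2.39 mean CPM and was scarce in both groups. Of the 17 members that passed the filter in ESC alone, 9 were higher (against 10.8% of all such genes). The 9 that were not called include the abundant Tdrd12 and Morc1, both needed for transposon silencing, which lay lower in D6PGCLC without passing the fold threshold (155, 155 and 163 against 92.7, 112 and 85.1 CPM for Tdrd12, and 143, 151 and 128 against 72.4, 90.1 and 84.7 CPM for Morc1). Tdrd9 was not called without D6PGCLC replicate 1, and Henmt1, the piRNA methyltransferase, was called higher only without it.

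Of 34 tested meiosis genes, 19 were called higher and none lower (against 15.8% and 10.3% of all tested genes). Of the 24 that passed the filter in ESC alone 12 were higher (against 10.8% of all such genes). Stra8 (chr6:34920163-34939344), the retinoic acid-responsive gate to meiosis, stood at 1.50, 1.01 and 1.01 CPM in ESC and 152, 130 and 194 CPM in D6PGCLC, 135-fold higher (log2 fold change 7.08 ± 0.30, edgeR adjusted p = 1.1e-12). Smc1b, a meiotic cohesin subunit, went from 5.25, 6.01 and 6.13 to 92.2, 94.0 and 94.3 CPM, and Meioc, a partner of YTHDC2 in meiotic entry, from 1.17, 1.62 and 1.78 to 23.4, 22.2 and 17.2 CPM. No library of one group reached the level of the other for these 3 genes. Components of the synaptonemal complex, which pairs homologous chromosomes, followed: Sycp1 from 1.63 to 28.0, Sycp2 from 0.0657 to 6.27 and Sycp3 from 2.52 to 12.7 mean CPM. Meiob, a single-strand DNA-binding partner of SPATA22 in recombination, which is not a list member but was among the largest changes, had 1 count over the ESC libraries and 793 over the D6PGCLC libraries, a ratio of 535 with a 95% counting interval of 95.7 to 21144. Spo11, which cuts the DNA to start recombination, was at 0.219, 0 and 0.302 CPM in ESC and 0, 0.264 and 0.170 CPM in D6PGCLC, that is, at the limit of detection in both. Dmc1, the meiotic recombinase, rose from 4.54 to 10.4 mean CPM, while Hormad1, a chromosome axis protein, stood at 35.5, 39.7 and 30.6 against 43.4, 39.1 and 37.3 CPM and Syce2, a central element protein, at 83.8, 72.1 and 79.4 against 38.8, 56.1 and 47.1 CPM, neither being called. Tex14 was lost without D6PGCLC replicate 1.

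The Rhox genes, a cluster of homeobox genes on the X chromosome (between 37213804 and 38129967 in mm10) that is expressed in the reproductive tract and the placenta, were close to silent in ESC. Their summed level was 11.2 to 11.6 CPM in the ESC libraries and 323 to 364 CPM in the D6PGCLC libraries. Rhox5 accounted for the largest share, with 5.07, 4.60 and 4.92 against 148, 154 and 137 CPM. Rhox9 went from 1.28, 0.701 and 0.503 to 63.7, 56.2 and 66.5 CPM, and Rhox6 from 0.328, 1.05 and 0.938 to 56.8, 48.3 and 58.1 CPM. These 3 genes did not overlap between groups. Of 34 Rhox genes in the table, 22 were tested and all were called higher (against 15.8% of all tested genes). Of these, 17 did not reach the count filter in ESC, so that they could hardly be called lower. The other 5 reached the filter in ESC and were higher. Another 6, among them Rhox11 and Rhox12, had no count in any of the 6 libraries. Members of the Rhox2, Rhox3 and Rhox4 subfamilies are near-identical copies, and how reads that match several copies were counted is not given in the sources used here, so single values for them are uncertain.

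Among pluripotency genes, the core factors were not called, while the naive set was partly lower. Pou5f1 (OCT4) stood at 1091, 975 and 1012 CPM in ESC and 771, 871 and 826 CPM in D6PGCLC, and Sox2 at 291, 286 and 285 against 340, 403 and 393 CPM. Neither was called, with log2 fold changes of -0.32 and 0.40. Of 16 tested genes shared by pluripotent states, 2 were higher and 3 lower (against 15.8% and 10.3% of all tested genes). Utf1 and Dppa4, both chromatin-associated, were higher (means 69.2 to 221 and 113 to 244 CPM). Lin28a, Zscan10, a zinc finger factor, and Tdgf1, the Nodal co-receptor Cripto, were lower. Tdgf1 went from 536, 541 and 521 to 98.9, 196 and 90.0 CPM, with D6PGCLC replicate 2 above the other libraries of its group. Foxd3 was listed at 0 in all 6 libraries.

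Of 18 naive pluripotency genes, 8 were lower, 1 higher and 9 not called (against 10.3% lower and 15.8% higher of all tested genes). Klf4 (chr4:55527143-55532466), a Kruppel-like factor, went from 171, 177 and 170 to 22.7, 14.3 and 20.4 CPM, 9.04-fold lower. Tfcp2l1, a factor downstream of LIF, went from 655, 703 and 696 to 172, 185 and 154 CPM, and Tdh, the threonine dehydrogenase on which mouse ESC depend, from 749, 760 and 738 to 169, 170 and 181 CPM. For all 3, each D6PGCLC library lay well below each ESC library. Jam2, a junctional adhesion molecule, Gbx2, a homeobox factor, Stat3, Spic and Tbx3 were lower as well. Esrrb and Zfp42 (REX1), however, kept a large part of their level, at 590 ± 9.16 against 410 ± 16.8 CPM and 502 ± 6.87 against 265 ± 25.0 CPM (SD, n = 3 each), and Klf2, Klf5 and Nr5a2 were not called either. Dppa5a, a KH-domain protein of ESC and germ cells, lay higher in D6PGCLC, at 695, 556 and 629 against 1024, 1149 and 1196 CPM, without reaching the fold threshold. Pecam1 (CD31) was the member called higher, from 120 to 376 mean CPM. The list's median log2 fold change was -0.85, beside -0.00 for all tested genes.

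Genes of the formative state, which the cells enter as epiblast-like cells before induction, and of the primed state were mixed. Of 17, 5 were higher and 6 lower (against 15.8% and 10.3% of all tested genes). Otx2, a homeobox factor that opposes germ cell entry, was at 2.30, 2.98 and 2.68 CPM in ESC and 6.86, 8.04 and 3.77 CPM in D6PGCLC, and Pou3f1 (OCT6) at 1.97, 2.24 and 1.88 against 9.51, 6.67 and 4.68 CPM. Both were scarce in each group though called higher. Fgf5, a marker of the primed epiblast, had 1 count over the ESC libraries and a mean of 0.437 CPM in D6PGCLC. Dnmt3b, Sox11, Sall2, Cdh2, Lef1 and Fgf15 were lower. Grhl2 and Lef1 were not called without D6PGCLC replicate 1.

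The signalling genes were read with the media in view, since ESC were grown with a GSK3 inhibitor, a MEK inhibitor and LIF and D6PGCLC without them; the part of the medium in the values below was not tested. Targets of WNT and beta-catenin signalling were lower: 11 of 23 tested members were called lower (against 10.3% of all tested genes) and 4 higher, with a median log2 fold change of -1.20, and their summed level was 474 to 491 CPM in ESC and 144 to 193 CPM in D6PGCLC. Axin2, a feedback inhibitor of the pathway, went from 142, 137 and 140 to 17.3, 15.1 and 11.8 CPM. Sp5, a direct target, went from 37.4, 35.9 and 35.6 to 0.368, 0.0220 and 0.142 CPM, and T (brachyury, chr17:8434423-8442496), the mesodermal T-box factor, from 14.8, 15.2 and 14.5 to 0, 0.0440 and 0.0283 CPM. T had 1185 counts in ESC and 3 in D6PGCLC, a ratio of 586 with a 95% counting interval of 199.98 to 2845. The caudal factors Cdx1 and Cdx2, the WNT antagonists Notum and Dkk1 and the ligand Wnt5b were lower too. Apcdd1, a membrane inhibitor of WNT signalling, and the ligand Wnt3 were higher, from 6.17 to 17.6 and from 0.338 to 1.19 mean CPM. Without D6PGCLC replicate 1 the counts were 9 lower and 2 higher, with Lef1, Mixl1, Wnt8a and Nkd2 no longer called.

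Of 12 LIF and STAT3 genes 5 were lower and 1 higher (against 10.3% and 15.8% of all tested genes). The lower count was 5 in each fit without 1 library, while the higher count was 3 without ESC replicate 3 and 2 without D6PGCLC replicate 2 or 3. Stat3 itself went from 165, 154 and 167 to 45.6, 43.5 and 45.5 CPM, and Socs3, its feedback inhibitor, from 99.4, 92.5 and 99.4 to 15.8, 23.3 and 8.84 CPM. Bcl3, a nuclear I-kappa-B protein induced by STAT3, went from 32.6 to 6.68 mean CPM. The receptor chains Lifr and Il6st were not called, at means of 57.4 and 93.6 CPM in ESC and 44.8 and 105 CPM in D6PGCLC. Pim1, a kinase that is also a STAT3 target, stood higher in each D6PGCLC library than in each ESC library, at 92.6, 79.7 and 96.1 against 184, 161 and 175 CPM, but its log2 fold change of 0.95 missed the threshold.

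Feedback genes of the ERK pathway were in part higher. Dusp4 and Dusp6, phosphatases that switch off ERK and are induced by it, went from 2.88, 1.67 and 3.28 to 87.0, 75.3 and 102 CPM and from 3.87, 3.29 and 4.49 to 35.4, 32.9 and 34.0 CPM. Dusp5 and Phlda1 were also higher, and Egr1, an immediate early factor, went from 0.347 to 3.05 mean CPM. Other ERK outputs were not: Etv5, an ETS factor, stood at 360, 370 and 338 against 324, 346 and 323 CPM, and Spry2 and Spry4, feedback inhibitors of receptor signalling, at means of 72.1 and 33.7 CPM in ESC and 44.7 and 21.9 CPM in D6PGCLC, none of the 3 being called. Myc and Ccnd1, which receive input from several pathways, were lower. Over the list 5 of 19 were higher and 2 lower (against 15.8% and 10.3% of all tested genes), with a median log2 fold change of -0.04. Dusp9 (chrX:73639419-73643514), a further ERK phosphatase that was no list member, had the largest rise in mean CPM of all called genes: it was at 25.4, 25.0 and 29.5 CPM in ESC and 615, 548 and 542 CPM in D6PGCLC, 21.3-fold higher.

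**Figure D3:**
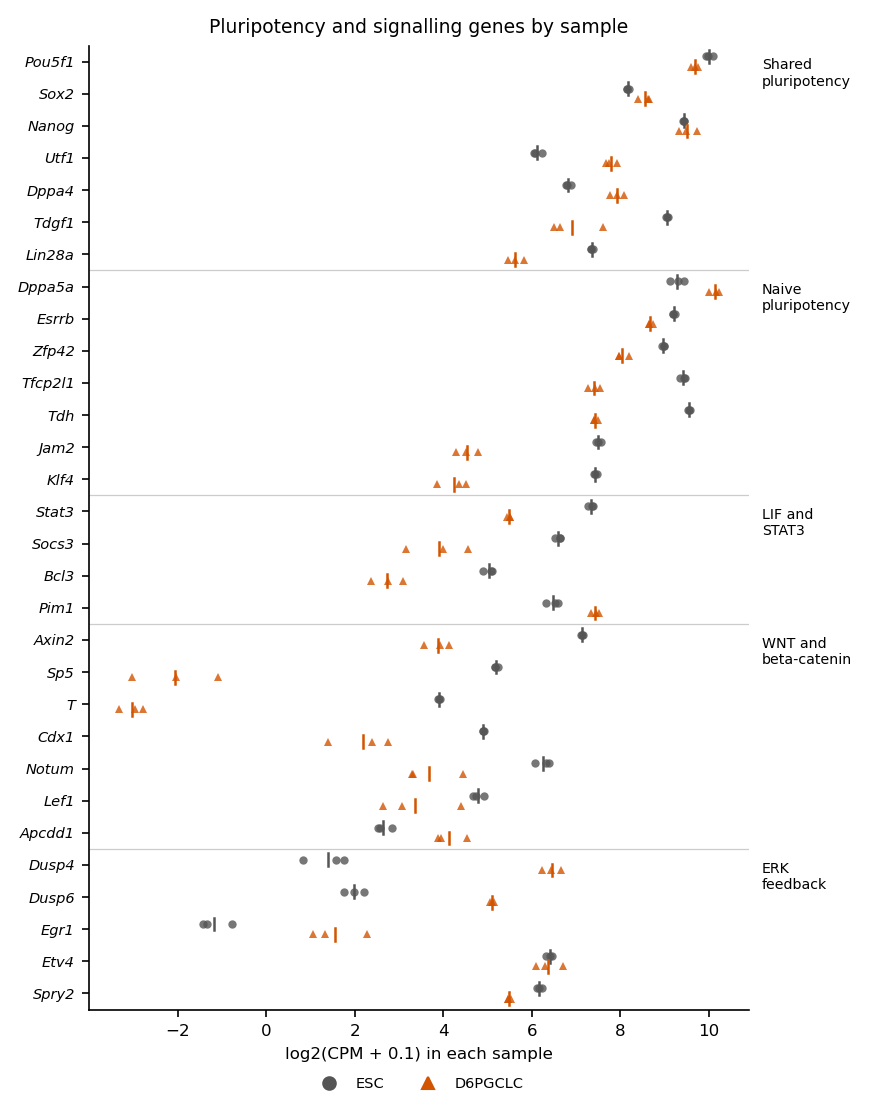
Pluripotency and signalling genes in each library as log2(CPM + 0.1): grey circles, the 3 ESC libraries; orange triangles, the 3 D6PGCLC libraries; vertical ticks, group means on this scale. Pou5f1, Sox2 and Nanog lie close together in both groups, Klf4, Socs3, Axin2, Sp5 and T lie far to the left in D6PGCLC, and Dusp4, Dusp6 and Egr1 lie to the right.

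BMP, Nodal and retinoic acid genes were called in both directions, in shares to be read against 15.8% higher and 10.3% lower of all tested genes. Of 14 BMP response genes 3 were higher and 2 lower: Id2, an inhibitor of helix-loop-helix factors, rose from 1.17 to 7.51 mean CPM, whereas its relative Id3 fell from 34.4 to 8.94 mean CPM and Id1 overlapped between groups, at 10.1, 6.36 and 7.67 against 7.04, 9.53 and 4.39 CPM. Of 13 Nodal pathway genes, Lefty1, a Nodal antagonist, was higher (29.4 to 92.6 mean CPM), and so was Inhbb, an activin subunit. Tdgf1 and Fst, which encodes the activin antagonist follistatin, were lower, the latter from 12.3, 12.4 and 11.1 to 0, 0.220 and 0.227 CPM. Nodal itself stood at 55.2, 54.2 and 51.1 against 46.9, 52.5 and 43.0 CPM and was not called. Of 16 retinoic acid genes 4 were higher and 2 lower, but none of the 10 that passed the filter in ESC alone was higher: the 4 were Cyp26a1, Dhrs3, Stra6 and Rarb, which stayed below 3 mean CPM in D6PGCLC. With D6PGCLC replicate 2 left out 2 of the 16 were called higher, and without any 1 of the 6 libraries 1 was called lower.

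Of 20 enzymes of DNA methylation and demethylation 3 were higher and 3 lower, near the 15.8% and 10.3% of all tested genes. Uhrf1, the cofactor that brings DNMT1 to replicating DNA, was at 740, 708 and 785 CPM in ESC and 280, 304 and 254 CPM in D6PGCLC (log2 fold change -1.41 ± 0.10, edgeR adjusted p = 2.0e-09). Dnmt3b, a de novo methyltransferase, went from 136, 137 and 130 to 46.4, 53.4 and 45.9 CPM, and Tet2, a dioxygenase that oxidises methylcytosine, from 182 to 73.1 mean CPM. The maintenance enzyme Dnmt1 itself was not called, at 404, 396 and 437 against 441, 451 and 451 CPM, and Dnmt3l overlapped between the groups, at 168, 156 and 154 against 105, 194 and 80.0 CPM. Higher were Uhrf2 (41.2 to 109 mean CPM) and the stress-response genes Gadd45a and Gadd45g, which have been linked to demethylation; Gadd45a went from 7.33, 5.17 and 8.54 to 82.3, 94.4 and 104 CPM. Of 21 subunits of the H3K9, PRC2 and PRC1.6 repressors, 1 was higher and 2 were lower (against 15.8% and 10.3% of all tested genes). The median log2 fold change was -0.11, with 9 members above 0 and 12 below. Suv39h1, an H3K9 methyltransferase, was higher (14.5 to 42.3 mean CPM), and Eed and Epop, both PRC2 components, were lower. Epop went from 1149, 980 and 998 to 238, 260 and 175 CPM. The PRC1.6 subunits Mga, L3mbtl2 and Pcgf6, which hold germ cell genes silent in ESC, lay lower in each D6PGCLC library than in each ESC library, with log2 fold changes of -0.82, -0.75 and -0.48 that did not pass the fold threshold. The groups did not overlap for 16 of the 21 members, nor for 11222 of all 18090 tested genes. A link of these 3 genes to the germ cell genes was not tested.

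Imprinted genes, whose parental alleles are marked by methylation in the germ line, moved in both directions. H19 (chr7:142575529-142578143), a non-coding RNA from the maternal allele, was at 0.0730, 0.0877 and 0.201 CPM in ESC and 175, 263 and 161 CPM in D6PGCLC (log2 fold change 10.60 ± 0.37, edgeR adjusted p = 1.1e-13). Its neighbour Igf2, an insulin-like growth factor from the paternal allele, had no count in ESC and only 0.131, 0.308 and 0.0283 CPM in D6PGCLC. Peg10, from 23.7, 27.4 and 21.8 to 131, 272 and 106 CPM, its neighbour Sgce, Peg3, its neighbour Usp29, Igf2r, Slc38a4 and Magel2 were also higher. Plagl1 (chr10:13060504-13131694), a zinc finger growth regulator, was lower, from 187, 201 and 172 to 8.15, 6.78 and 7.34 CPM, 25.2-fold lower. Lower as well were Rian, Meg3 and Mirg, 3 non-coding RNAs of the Dlk1-Dio3 domain, of which Rian went from 123, 135 and 115 to 20.9, 23.4 and 22.9 CPM, the antisense RNA Kcnq1ot1 (70.6 to 13.8 mean CPM), Mest and Nnat. Of 37 tested imprinted genes 9 were higher and 10 lower, against 15.8% and 10.3% of all tested genes, and 9 were lower without D6PGCLC replicate 1. Counts do not tell the parental alleles apart.

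Among metabolic genes, those of cholesterol synthesis were lower in most members. Of 24 genes of cholesterol synthesis and uptake, 21 were lower and none higher (against 10.3% and 15.8% of all tested genes). Their median log2 fold change was -1.53 (-0.00 for all tested genes), and their summed level was 3639 to 3731 CPM in ESC and 1323 to 1575 CPM in D6PGCLC. Sqle, the squalene epoxidase, went from 216, 214 and 223 to 76.3, 77.0 and 76.2 CPM, Lss, the lanosterol synthase, from 247, 239 and 256 to 52.0, 74.8 and 61.3 CPM, and Dhcr7, the 7-dehydrocholesterol reductase, from 145, 147 and 127 to 36.5, 40.6 and 30.2 CPM. The groups were far apart in each. Insig1, an SREBP target that retains SREBP in the endoplasmic reticulum, was at means of 322 and 56.1 CPM. Srebf2, which encodes the SREBP2 transcription factor, Hmgcs1 and Hsd17b7 were not called. Fdps was called lower at 7.02 against 1.09 mean CPM, but it has near-identical processed copies and its count is uncertain. Without D6PGCLC replicate 1 there were 17 lower, with Stard4, Mvk, Fdft1 and Cyp51, all close to the fold threshold, no longer called. Genes of fatty acid synthesis stood among the 10 largest falls in CPM: Scd2 (chr19:44293674-44306864), a fatty acid desaturase, went from 1744, 1679 and 1579 to 114, 143 and 83.5 CPM, 14.7-fold lower, Acly, which makes cytosolic acetyl-CoA, from a mean of 1373 to 538 CPM, and Fasn, the fatty acid synthase, from 1175 to 564 CPM.

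Glycolysis genes were lower in 10 of 22 and higher in 1 (against 10.3% and 15.8% of all tested genes), with a median log2 fold change of -0.84, but the D6PGCLC libraries differed widely among themselves. Ldha, the lactate dehydrogenase A chain, was at 1188, 1160 and 1184 CPM in ESC and 299, 610 and 170 CPM in D6PGCLC, Slc16a3, a lactate exporter, at 187, 184 and 206 against 20.6, 77.2 and 4.19 CPM, and Aldoc, an aldolase, at 53.5, 52.4 and 59.2 against 4.26, 13.3 and 2.55 CPM. Replicate 2 was the highest and replicate 3 the lowest D6PGCLC library for all 3. The groups still did not overlap for them, and each D6PGCLC library was below the ESC libraries in the summed level, at 9465, 13069 and 8118 CPM against 16656 to 17620 CPM. For Aldoa, the main aldolase, the groups did overlap, at 1568, 1510 and 1542 against 988, 1536 and 633 CPM, and it was not called. Hk2, the hexokinase that starts glycolysis in ESC, was more even, at 606, 574 and 623 against 266, 297 and 266 CPM. Ldhb, the other lactate dehydrogenase chain, moved the opposite way, from 151, 139 and 150 to 581, 485 and 652 CPM (log2 fold change 1.97 ± 0.13, edgeR adjusted p = 4.2e-10). The number called lower depended on single libraries: it was 7 without D6PGCLC replicate 1, 11 without replicate 2 and 5 over the leave-one-out fits at its lowest, that without replicate 3. The number called higher was 2 without ESC replicate 1, ESC replicate 3 or D6PGCLC replicate 3.

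**Figure D4:**
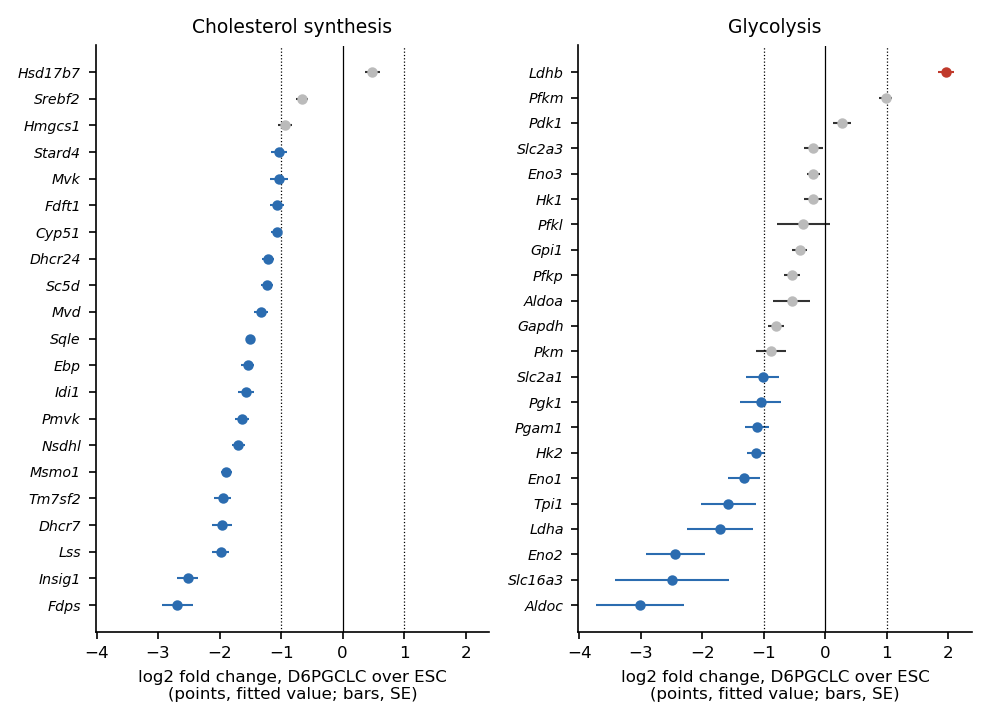
Fitted log2 fold change of D6PGCLC over ESC for 21 of the 24 cholesterol genes (left) and the 22 glycolysis genes (right); bars are standard errors, blue marks genes called lower, red called higher, grey not called, and dotted lines mark -1 and 1. The cholesterol genes shown lie left of -1 except Hsd17b7, Srebf2 and Hmgcs1, with short bars, while glycolysis genes spread from -3.01 for Aldoc to 1.97 for Ldhb, several with long bars.

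Oxidative phosphorylation subunits had a median log2 fold change of 0.09. Their summed level was nonetheless lower in each D6PGCLC library, at 25288 to 28946 CPM in ESC and 22381 to 23766 CPM in D6PGCLC. Without D6PGCLC replicate 3, 2 were called higher and 1 lower. With all libraries, 4 of 93 were called higher and none lower (against 15.8% and 10.3% of all tested genes). The 4 were Cox6a2, Cox6b2, Cox7b2 and mt-Nd3, of which Cox6b2, a testis form of a cytochrome c oxidase subunit, went from 18.9 to 61.3 mean CPM and the others stayed below 2 mean CPM. Of 18 serine, threonine and one-carbon genes 3 were lower, among them Tdh and Gcat of threonine catabolism, against the same shares of all tested genes. None was higher, or 1 without D6PGCLC replicate 2. Gpx4, the lipid peroxide-reducing selenoenzyme, and Etnk1, the ethanolamine kinase of phospholipid synthesis, were among the 10 largest rises in CPM, at means of 292 and 301 CPM in ESC and 634 and 827 CPM in D6PGCLC.

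None of 20 general proliferation genes was called in either direction. Of 21 G1 cyclins, MYC genes and inhibitors 2 were higher, 4 lower and 15 not called (against 15.8% and 10.3% of all tested genes), and 1 was higher without ESC replicate 1, ESC replicate 3 or D6PGCLC replicate 1. Rb1, the retinoblastoma protein, was at 5.62, 5.87 and 5.36 CPM in ESC and 52.4, 38.9 and 38.6 CPM in D6PGCLC (log2 fold change 2.95 ± 0.18, edgeR adjusted p = 1.0e-10). Ccnd1, cyclin D1, went from 137, 136 and 139 to 18.4, 22.9 and 17.5 CPM, its partner Cdk6 from 65.0, 59.1 and 61.8 to 9.49, 10.2 and 13.0 CPM, and Myc from 23.5, 22.1 and 20.7 to 0.920, 3.99 and 1.39 CPM. Ccnd3, cyclin D3, lay higher, at 121, 124 and 118 against 257, 225 and 247 CPM, on the edge of the fold threshold and not past it without D6PGCLC replicate 1. Of 19 p53 target genes 5 were higher, 1 lower and 13 not called (against 15.8% and 10.3% of all tested genes), with a median log2 fold change of 0.26. Perp, a membrane protein of apoptosis, went from 1.53, 0.658 and 1.31 to 22.5, 17.3 and 17.5 CPM, and Mdm2, the p53 ubiquitin ligase, from a mean of 94.9 to 219 CPM. The proapoptotic Bbc3 and Pmaip1 were higher as well, whereas Cdkn1a (p21), the p53-induced cell cycle inhibitor, was lower, from 155, 145 and 171 to 55.2, 50.6 and 51.4 CPM.

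Surface and matrix genes are read here against 15.8% higher and 10.3% lower of all tested genes. Of 25 tested integrins, cadherins and tight junction genes 10 were higher and 2 lower (1 without D6PGCLC replicate 2), and of the 22 that passed the filter in ESC alone 8 were higher. Cdh3, P-cadherin, went from 11.0, 12.9 and 12.4 to 80.6, 80.0 and 98.0 CPM, and Epcam, an epithelial adhesion molecule of PGCs and ESC, from 63.7, 59.8 and 51.4 to 180, 176 and 162 CPM. The claudins Cldn3, Cldn6 and Cldn7, the tight junction proteins, were higher too, Cldn6 from 3.90 to 23.2 mean CPM. Cdh1, E-cadherin, was not called, at means of 538 and 333 CPM. Of 47 collagens and laminins 20 were higher and 4 lower, the latter being 3 without D6PGCLC replicate 1 and 2 without replicate 3. Of the 32 that passed the filter in ESC alone 10 were higher. Col18a1, whose product is a basement membrane collagen, went from 118, 120 and 135 to 490, 444 and 464 CPM, and Col9a2 from 3.39, 3.64 and 3.12 to 91.1, 95.7 and 73.0 CPM. Lama1, the embryonic laminin alpha chain, and Lamb2 were lower (26.9 to 8.06 and 50.3 to 18.6 mean CPM), while Lamb1 was higher (28.2 to 84.5 mean CPM). Among 17 MHC class I and antigen processing genes 4 (23.5%) were higher and 3 (17.6%) lower, or 2 lower without D6PGCLC replicate 1. The classical genes H2-K1 and H2-D1 went from 65.5, 61.3 and 64.3 to 16.4, 24.4 and 18.4 CPM and from 27.9, 28.4 and 29.6 to 5.99, 9.58 and 7.37 CPM, while the non-classical H2-M3 rose from 0.306 to 2.43 mean CPM; reads can be split between such similar genes.

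Markers of other cell types were examined for whole lists, against the same 15.8% higher and 10.3% lower of all tested genes. Fibroblast and feeder markers summed to 33.8 to 36.3 CPM in ESC and 19.4 to 23.2 CPM in D6PGCLC; 1 of 10 tested was higher (2 without ESC replicate 1) and 3 lower (2 without D6PGCLC replicate 1 and 1 without replicate 3), Col1a1 was at 1.96 and 0.909 mean CPM, and Dcn, Prrx1, Fap and S100a4 were at 0 in all 6 libraries. Mesoderm markers summed to 51.8 to 52.9 CPM in ESC and 43.2 to 50.7 CPM in D6PGCLC, with 2 of 14 higher (4 without ESC replicate 1) and 4 lower (3 without D6PGCLC replicate 1). Those called higher were Hand1 (0.320 to 13.1 mean CPM), a helix-loop-helix factor, and Gata6 (0.314 to 9.25 mean CPM), a GATA factor also listed for endoderm. Neither passed the filter in ESC alone, so that they could hardly be called lower. Of the 9 mesoderm markers that passed it there, 0 were higher and 4 lower. Endoderm markers summed to 461 to 482 CPM in ESC and 40.9 to 54.0 CPM in D6PGCLC, with 5 of 12 higher and 5 lower (3 lower without D6PGCLC replicate 2). Their median log2 fold change was -0.44. Of the 7 that passed the filter in ESC alone, 1 was higher and 5 were lower, with a median of -1.16. Trh, the thyrotropin-releasing hormone precursor, which was abundant in these ESC, went from 467, 445 and 446 to 3.89, 6.45 and 3.77 CPM. Without it the endoderm sum lay higher in D6PGCLC, at 14.4, 15.7 and 16.1 CPM in ESC and 50.1, 34.4 and 42.1 CPM in D6PGCLC. Pth1r, the parathyroid hormone receptor, and Dab2, an endocytic adaptor, both of primitive endoderm, were higher (0.235 to 13.4 and 0.346 to 11.0 mean CPM), but Sox17, Foxa2, Afp and Apoa1 were not called or not tested and Ttr had no count. Neural markers summed to 341 to 366 CPM in ESC and 93.7 to 108 CPM in D6PGCLC, with 4 of 15 higher (3 without D6PGCLC replicate 1) and 4 lower, among the latter Vim, vimentin, which went from 173, 188 and 187 to 22.7, 21.5 and 17.7 CPM. Of the 8 neural markers that passed the filter in ESC alone, 1 was higher and 4 were lower.

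Trophoblast markers were called in both directions as well. Of 13, 6 were higher and 4 lower (against 15.8% and 10.3% of all tested genes). Of the 8 that passed the filter in ESC alone, however, only 1 was higher and 4 were lower (against 10.8% and 12.0% of all such genes). Gata3 (chr2:9857078-9890034), a GATA factor of trophoblast that was also listed with late PGC genes, had 1 count over the ESC libraries and 13.0, 10.2 and 8.13 CPM in D6PGCLC, a ratio of 837 with a 95% counting interval of 149.9 to 33075. Gcm1, a factor of syncytiotrophoblast, and Krt7, a simple epithelial keratin, had 2 and 3 counts in ESC and means of 4.08 and 4.41 CPM in D6PGCLC. Hand1, Elf5 and Krt18 were higher too. The trophectoderm factor Cdx2, Krt8, Krt19 and Tfap2a were lower, Tfap2a from 18.8, 14.9 and 17.7 to 2.44, 1.83 and 1.25 CPM, and the placental genes Prl3d1, Prl2c2 and Tpbpa were at 0 in all 6 libraries. The list summed to 93.5 to 101 CPM in ESC and 87.4 to 107 CPM in D6PGCLC. The part of such cells in the D6PGCLC libraries was not tested.

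Hox genes, which pattern the body axis and are repressed in PGCs, were few and low. Of 39 Hox genes listed, 18 were tested, with a median log2 fold change of -1.36. Of these 18, 10 were lower in D6PGCLC and 1 was higher (against 10.3% and 15.8% of all tested genes). Hoxc13 went from 6.75, 7.85 and 7.64 to 1.50, 0.639 and 1.64 CPM, Hoxc12 from 2.30, 1.97 and 3.15 to 0, 0 and 0.0850 CPM, and Hoxc5 from 0.766, 0.307 and 0.335 CPM to no count, at least 18.8-fold lower. The summed level was 36.3 to 40.3 CPM in ESC and 16.5 to 19.4 CPM in D6PGCLC. Hoxa13, Hoxd9, Hoxa7 and Hoxb7 were not called without D6PGCLC replicate 1. Of the 18 tested genes 7 were then lower and 0 higher. The number higher was also 0 in the other fits without 1 library, except that without ESC replicate 3. Of 15 genes of the 2-cell stage 3 were higher and none lower (against 15.8% and 10.3% of all tested genes). This became 1 higher without ESC replicate 3 and 2 lower without D6PGCLC replicate 2. Eif1a, a translation initiation factor, made up most of their level, at 330, 332 and 324 CPM in ESC and 171, 230 and 214 CPM in D6PGCLC, without passing the fold threshold. The others summed to 7.30, 7.19 and 6.27 CPM in ESC and 9.56, 16.9 and 7.17 CPM in D6PGCLC, with Zscan4f at 0.545 and 1.45 mean CPM, in a family of near-identical copies.

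**Figure D5:**
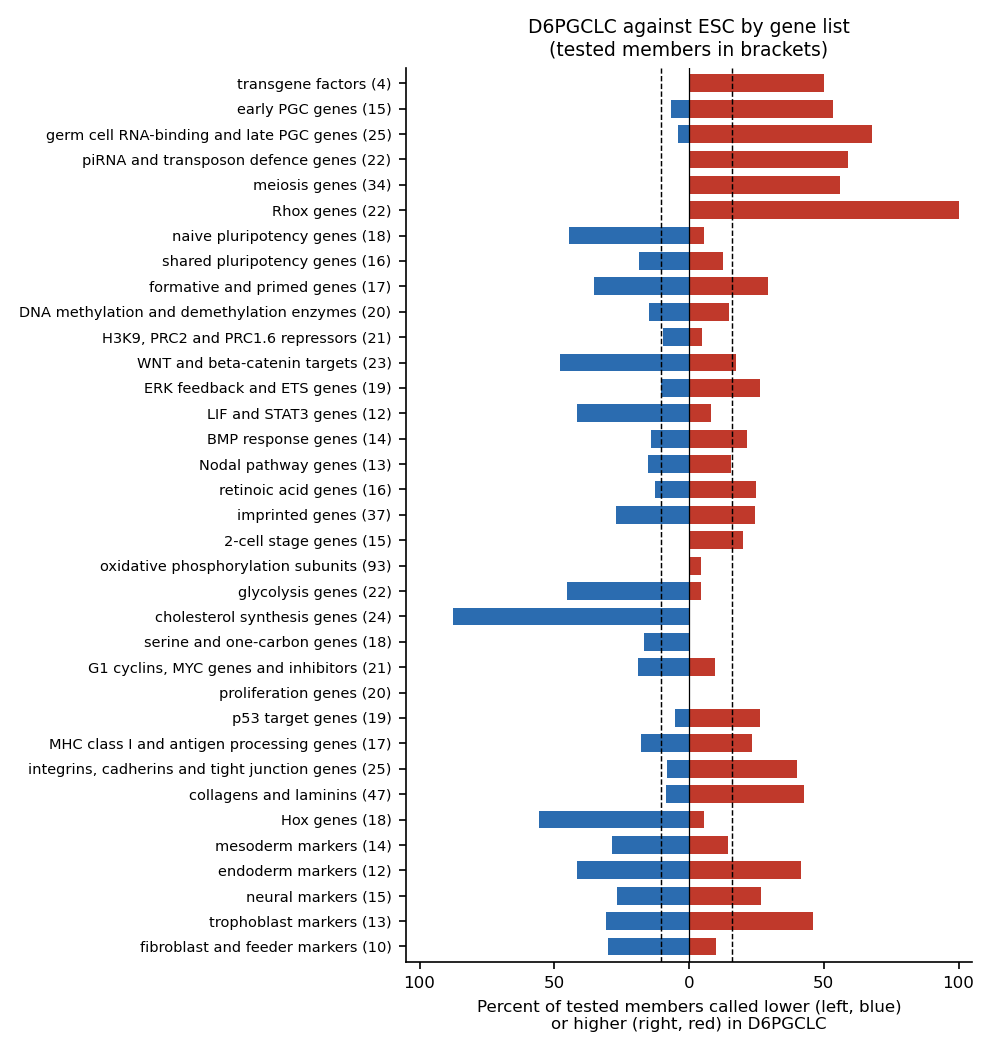
Percent of the tested members of each of 35 gene lists called lower (blue, to the left) or higher (red, to the right) in D6PGCLC than in ESC, with the number of tested members in brackets; dashed lines mark the share over all 18090 tested genes, 10.3% lower and 15.8% higher. Germ cell lists extend to the right, cholesterol synthesis, Hox, WNT, glycolysis and naive pluripotency genes to the left, and oxidative phosphorylation and proliferation genes hardly extend.

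The largest single changes, ranked by fold among genes with a mean of at least 100 counts, lay outside the usual marker sets in part. Cyp1b1 (chr17:79701537-79715061), a cytochrome P450 that metabolises retinol, oestrogens and other lipids, had 1 count over the ESC libraries and 33.1, 30.3 and 32.1 CPM in D6PGCLC, a ratio of 2539 with a 95% counting interval of 455 to 100320. Wnt7b, a WNT ligand, went from 0.109, 0 and 0.101 to 18.7, 17.4 and 13.1 CPM, and Adgrf5, an adhesion G protein-coupled receptor, from 0.109, 0.0438 and 0.0335 to 13.0, 9.84 and 16.3 CPM. Gad2, the glutamate decarboxylase that makes GABA, had 2 counts in ESC and a mean of 7.18 CPM in D6PGCLC. All 4 were at or near the detection limit in every ESC library and above 6 CPM in every D6PGCLC library. In the other direction Fgf10, a fibroblast growth factor, went from 22.1, 25.0 and 18.6 to 0, 0.0661 and 0.0850 CPM, Nkx1-2, a homeobox factor of axial progenitors, from 44.7, 38.7 and 42.6 to 0.263, 0.330 and 0.142 CPM, and Nefm, a neurofilament chain, from 107, 94.7 and 103 to 0.420, 1.50 and 1.22 CPM. Cnga4 and Tgm1 fell from means of 10.3 and 16.4 CPM to 0.0661 and 0.177 CPM.

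On a strict measure of switching, 27 genes had at most 3 counts in each ESC library and at least 100 in each D6PGCLC library. Besides Rbm46, Meiob and Sycp2, and Rhox13 and Rhox4g, they included Gata3, Gcm1 and Krt7 as well as Cyp1b1, Wnt7b, Adgrf5, Gad2 and Ptpre, a receptor tyrosine phosphatase (6.19 mean CPM in D6PGCLC). Only 3 genes met the reverse, T, Fgf10 and Pglyrp1, a peptidoglycan recognition protein, which had 502 counts in ESC and 1 in D6PGCLC. The largest fall in CPM was Gm42418, which overlaps the ribosomal RNA locus, at 12151, 5015 and 4285 CPM in ESC and 2831, 2756 and 3264 CPM in D6PGCLC; ESC replicate 1 was far above the other libraries, and Gm23935, also among the 10 largest falls, was likewise highest in ESC replicate 1 (2520, 995 and 852 CPM in ESC).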

How the data were processed

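The series holds RNA-seq libraries of 5 stages with 3 replicates each, prepared with the NEBNext Ultra II Directional kit. The authors deposited 1 table of raw gene counts; their processing notes name Trim Galore, FastQC, STAR and mm10. The counting tool, its strand setting and its treatment of multiply aligned reads are not given in the sources used here, so values of overlapping, antisense and near-identical genes are uncertain. Identifiers were matched to GENCODE release M21 (55536 of 55536), and where a symbol had several identifiers the most abundant was used.

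From the deposited counts, genes were kept by filterByExpr of edgeR 4.0.16 (minimum count 10, judged over the 5 stages), scaled by TMM and fitted with glmQLFit over all 15 libraries, with 1 coefficient per stage, and D6PGCLC was contrasted with ESC by glmQLFTest. The study's methods name DESeq2, which was run as an alternative (1.42.0). TPM was computed from these counts and the summed exon length of each gene. Calls needed an adjusted p below 0.05 together with a log2 fold change beyond 1 in either direction. The edgeR and DESeq2 fits of this contrast were tested on simulated data. Tables and plots were made with R 4.3.3, Python 3.11.15, pandas 2.3.3, numpy 2.4.6, SciPy 1.17.1 and matplotlib 3.10.9. A gene without counts in a group was set at 3 counts over that group for a fold. Groups with 1 to 3 counts are given as a ratio with an exact binomial 95% interval. Intervals and floors cover counting error only.

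Genes named are members of 35 gene lists, the 10 highest and 10 lowest log2 fold changes among called genes that averaged 100 counts or more and whose groups did not overlap, the 10 largest rises and falls in CPM among called genes, and the 10 most abundant of those with at most 3 counts in every library of one group and at least 100 in every library of the other. Meiob, Dusp9 and other genes outside the lists entered by these rules. Members and lists were chosen with earlier results of these data known. Alternatives were another tool, normalization, filter, set of libraries, a replicate block, no fold cutoff, and leaving out each library. Some members that count in the lists are not reported here by name.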

Additional observations from a re-analysis of the deposited data

How the results depend on the processing

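Against 2865 genes higher and 1867 lower, DESeq2 (21465 genes with an adjusted p) called 3024 and 2004, DESeq2 size factors in edgeR 2862 and 1873, no filter on low counts (32320 genes) 3121 and 1979, and a fit of only the 6 libraries (16491 genes) 2580 and 1625. Without a fold cutoff there were 5019 and 4702. Leaving out each library in turn gave 2730 to 2998 higher and 1698 to 2006 lower. Members of all lists were called higher in 179 and lower in 118, and in 168 to 181 and 104 to 121 over the alternatives. Same-numbered libraries did not deviate together (r from -0.018 to 0.0097 across genes), nor did unlike-numbered ones (-0.011 to 0.026). Such values cannot tell whether the libraries were paired, and the labels give only replicate numbers. With a replicate block there were 2822 and 1882. Of 241 named genes tested, DESeq2 size factors, no filter and the replicate block each took the call from at most 2 and reversed none, whereas leaving out 1 library took it from 9 to 18. Log2 fold changes that reversed belonged to uncalled genes: over the fits without 1 library, Id1 ran from -0.49 to 0.059 (above 0 without D6PGCLC replicate 3), Nanog from -0.028 to 0.20 (below 0 without D6PGCLC replicate 2) and Spo11 from -1.08 to 0.36 (above 0 without ESC replicate 3, and 0.29 without D6PGCLC replicate 1). Hoxc5 was not called by DESeq2. Depth limits genes near the floor of 3 counts, at most 0.132 CPM, and the cause of the low detection in D6PGCLC replicate 1 was not tested.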

Other observations

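By annotated type of gene, protein-coding genes were called higher in 2511 (17.0%) and lower in 1354 (9.16%) of 14775 tested, whereas processed pseudogenes were higher in 36 and lower in 152 of 913 (16.6%), with a median log2 fold change of -0.47, and genes of the provisional class TEC were higher in 18 and lower in 84 of 479, with a median of -0.69. Without D6PGCLC replicate 1 these numbers were 35 and 119 for processed pseudogenes and 15 and 73 for TEC. Long intergenic RNAs were called in both directions, 135 of 679 higher and 112 lower. Processed pseudogenes are near-identical to their parent genes, so their counts are uncertain.

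Among chromosomes, protein-coding genes of the X had the largest share called higher of those with at least 100 tested genes, 145 of 572 (25.3%), with 61 lower (10.7%); without the Rhox genes it was 123 of 550 (22.4%). Chromosome 6 had 160 of 704 (22.7%) and chromosome 11 the smallest such share, 156 of 1231 (12.7%).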
